A study of Mus musculus with 12 samples.

Results

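The genes described here are those of the centrosome and the primary cilium, chosen by name from a table of RNA sequencing counts: every row whose symbol begins with Cep, Ift or Bbs and a digit, or with Tctn, B9d, Mks1, Tmem67, Tmem216 or Tmem231. This gave 65 of the 22899 genes in the table, namely 34 Cep, 14 Ift, 8 Bbs, 3 Tctn, 2 B9d and 3 Tmem genes and Mks1. No measured value enters the choice of symbols, but the set was proposed with results from these libraries known, so counts and medians over its members are given as descriptions beside those of all genes. Of the 65 genes, 58 had enough counts to be tested among 13139 tested genes.

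Each library came from primary neurons of C57Bl6 mice, and the 12 libraries form 4 groups of 3. The KA group received kainic acid, which opens AMPA and kainate receptors for glutamate, at 100 µM in the medium, and its control (KA control) received no treatment. The OGD group was deprived of oxygen and glucose, which is a culture model of ischaemia, and its control (OGD control) was also untreated. The labels used here state neither exposure times, nor the age or brain region of the cultures, nor whether replicates are separate cultures, and the spread behind each p-value may therefore be technical. Library totals ranged from 12873444 to 21142267 counts, at which 1 count equals 0.0429 to 0.0832 CPM, counts scaled to a common library size. CPM values below are scaled by TMM, which corrects for differences in library composition, and are given as mean ± SD of 3 libraries. A gene is called higher or lower where its Benjamini-Hochberg adjusted p from edgeR's quasi-likelihood test, over all 13139 tested genes, is under 0.05.

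A primary cilium is a single, immotile, antenna-like projection that most neurons carry. It grows from a basal body, the mother centriole of the centrosome docked at the plasma membrane by its distal appendages. Intraflagellar transport (IFT) moves cargo along the axoneme: kinesin-2 carries the IFT-B complex to the tip, and dynein-2 returns with IFT-A. The BBSome, a coat made of Bbs proteins, removes receptors from the ciliary membrane, and the transition zone at the base (Tctn, B9d, Mks1 and Tmem proteins and Cep290) gates what enters. In neurons the cilium carries somatostatin, serotonin and melanin-concentrating hormone receptors and the Hedgehog machinery. RFX transcription factors bind a palindromic element, the X-box, upstream of many ciliary genes.

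The X-box was therefore searched for, as GTTNCC followed by GGNAAC with 0 to 3 bases between them, on both strands of the 300 bases from 250 before to 50 after each gene start (RefSeq, GRCm38.p6). Promoters were listed for 56 of the 65 genes, and 7 of these (12.5%) held the element, against 253 of 27025 genes in the same table (0.936%). These are shown because they are the members whose start regions hold the whole element, which is in capitals with 7 bases on each side, 5′ to 3′ on the strand of the gene (the Tctn1 window ends with the promoter).
Ift57, chr16:49699227-49699253, plus strand: ccctgcgGTTGCCTGGTAACggtgggg
Bbs7, chr3:36613490-36613517, minus strand: cgccccgGTTGCCTTGGAAACcggccag
Tctn1, chr5:122264411-122264431, minus strand: tgtgactGTTGCCCGGGCAAC
Tctn3, chr19:40612352-40612378, minus strand: cccagcgGTTGCCAGGTAACgggaacc
Mks1, chr11:87853184-87853211, plus strand: cgtctccGTTGCCAGGGGAACgaggcac
Cep19, chr16:32099804-32099831, plus strand: gccttctGTTGCCTTGGGAACgatcctc
Cep41, chr6:30693859-30693887, minus strand: gtcccgcGTTGCCCTTGGCAACcattgag
The spacing between GTTNCC and GGNAAC was 1 base in Ift57 and Tctn3, 2 bases in Bbs7, Tctn1, Mks1 and Cep19, and 3 bases in Cep41. Of the 7 genes, Bbs7, Mks1, Cep19 and Cep41 were called lower in KA than in KA control, Ift57 and Tctn3 were not called, and Tctn1 was not tested. Among all 58 tested members 36 were called lower, which is a similar share. The half-site GTTNCC alone, which the full element contains, was in 42 of the 56 promoters (75%), against 48.8% of all promoters. The cyclic AMP response element TGACGTCA was in 2 of the 56 (3.57%, Ift57 and Cep57), against 2.03% of all, and the AP-1 element TGANTCA in 2 of the 56 (3.57%, Bbs5 and Tmem231), against 8.97%. A match to these letters describes the sequence and is not evidence of binding.

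Bbs7 and Bbs5 encode subunits of the same complex and moved in opposite directions with KA, so their promoters are printed whole, each on the strand of its gene. In the Bbs7 promoter (chr3:36613340-36613639, minus strand) the X-box, in capitals, begins 121 bases before the gene start. In the Bbs5 promoter (chr2:69646921-69647220, plus strand) the capitals mark the AP-1 match, which begins 98 bases before the start. The half-site GTTGCC, not in capitals, lies at the very end of this sequence. The window stops there, so whether GGNAAC follows in Bbs5 could not be seen, and the lack of a whole X-box is not established.
Bbs7: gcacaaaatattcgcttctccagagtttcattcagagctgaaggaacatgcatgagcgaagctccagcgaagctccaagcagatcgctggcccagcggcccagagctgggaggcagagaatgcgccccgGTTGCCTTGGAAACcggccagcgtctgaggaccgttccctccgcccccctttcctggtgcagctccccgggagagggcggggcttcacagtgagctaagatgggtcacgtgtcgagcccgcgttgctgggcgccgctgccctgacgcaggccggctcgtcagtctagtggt
Bbs5: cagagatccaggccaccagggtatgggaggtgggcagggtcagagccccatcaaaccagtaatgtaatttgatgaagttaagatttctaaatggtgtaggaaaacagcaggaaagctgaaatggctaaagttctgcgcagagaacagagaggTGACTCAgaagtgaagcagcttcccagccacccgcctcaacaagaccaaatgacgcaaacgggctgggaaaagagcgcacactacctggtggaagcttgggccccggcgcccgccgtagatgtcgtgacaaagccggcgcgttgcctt

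In KA, 36 of the 58 tested genes were lower and 7 were higher than in KA control, and 15 were not called. Among all tested genes 37.6% were called lower and 35.2% higher. The median log2 fold change of the 58 was -0.68, against -0.021 for all tested genes. At least 2-fold lower were 19 of the 58, against 9.92% of all tested genes, and at least 2-fold higher was 1, against 11.2% of all. In bulk RNA, fewer cells of a type and less RNA per cell cannot be told apart. Every KA library lay below every KA control library for 38 of the 58 genes (38.4% of all tested genes did so) and above for 9 (35.3%). As a level relative to each gene's own mean over the 12 libraries, the median of the 58 genes was -0.23 to -0.18 (log2) in the KA libraries, 0.30 to 0.34 in KA control, 0.018 to 0.065 in OGD and -0.14 to -0.093 in OGD control, so that the groups did not overlap. The same median over all tested genes was -0.010 to -0.0083 in KA and 0.0076 to 0.013 in KA control. It was 0.0034 to 0.0083 in OGD and -0.00094 to 0.0085 in OGD control. There too every KA library lay below all others, by far less, while the other groups overlapped.

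In OGD the changes were smaller and mostly upward. Against OGD control, 23 of the 58 were higher and 3 were lower, while 17.6% of all tested genes were called higher and 20.5% lower. The median log2 fold change was 0.19, against 0.0064 for all tested genes, and none of the 58 was called at least 2-fold higher (0.411% of all tested genes) or lower (1.25%). Against KA control the OGD median had the other sign, as described further on. All OGD libraries were above all OGD control libraries for 31 genes (24% of all tested genes) and below for 6 (25%). The difference of the responses, KA against KA control minus OGD against OGD control, was called for 44 of the 58: 36 lower (34.4% of all tested genes) and 8 higher (33.8%), of which 21 were at least 2-fold lower (13.2%) and 1 at least 2-fold higher (14.4%).

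**Figure D1:**
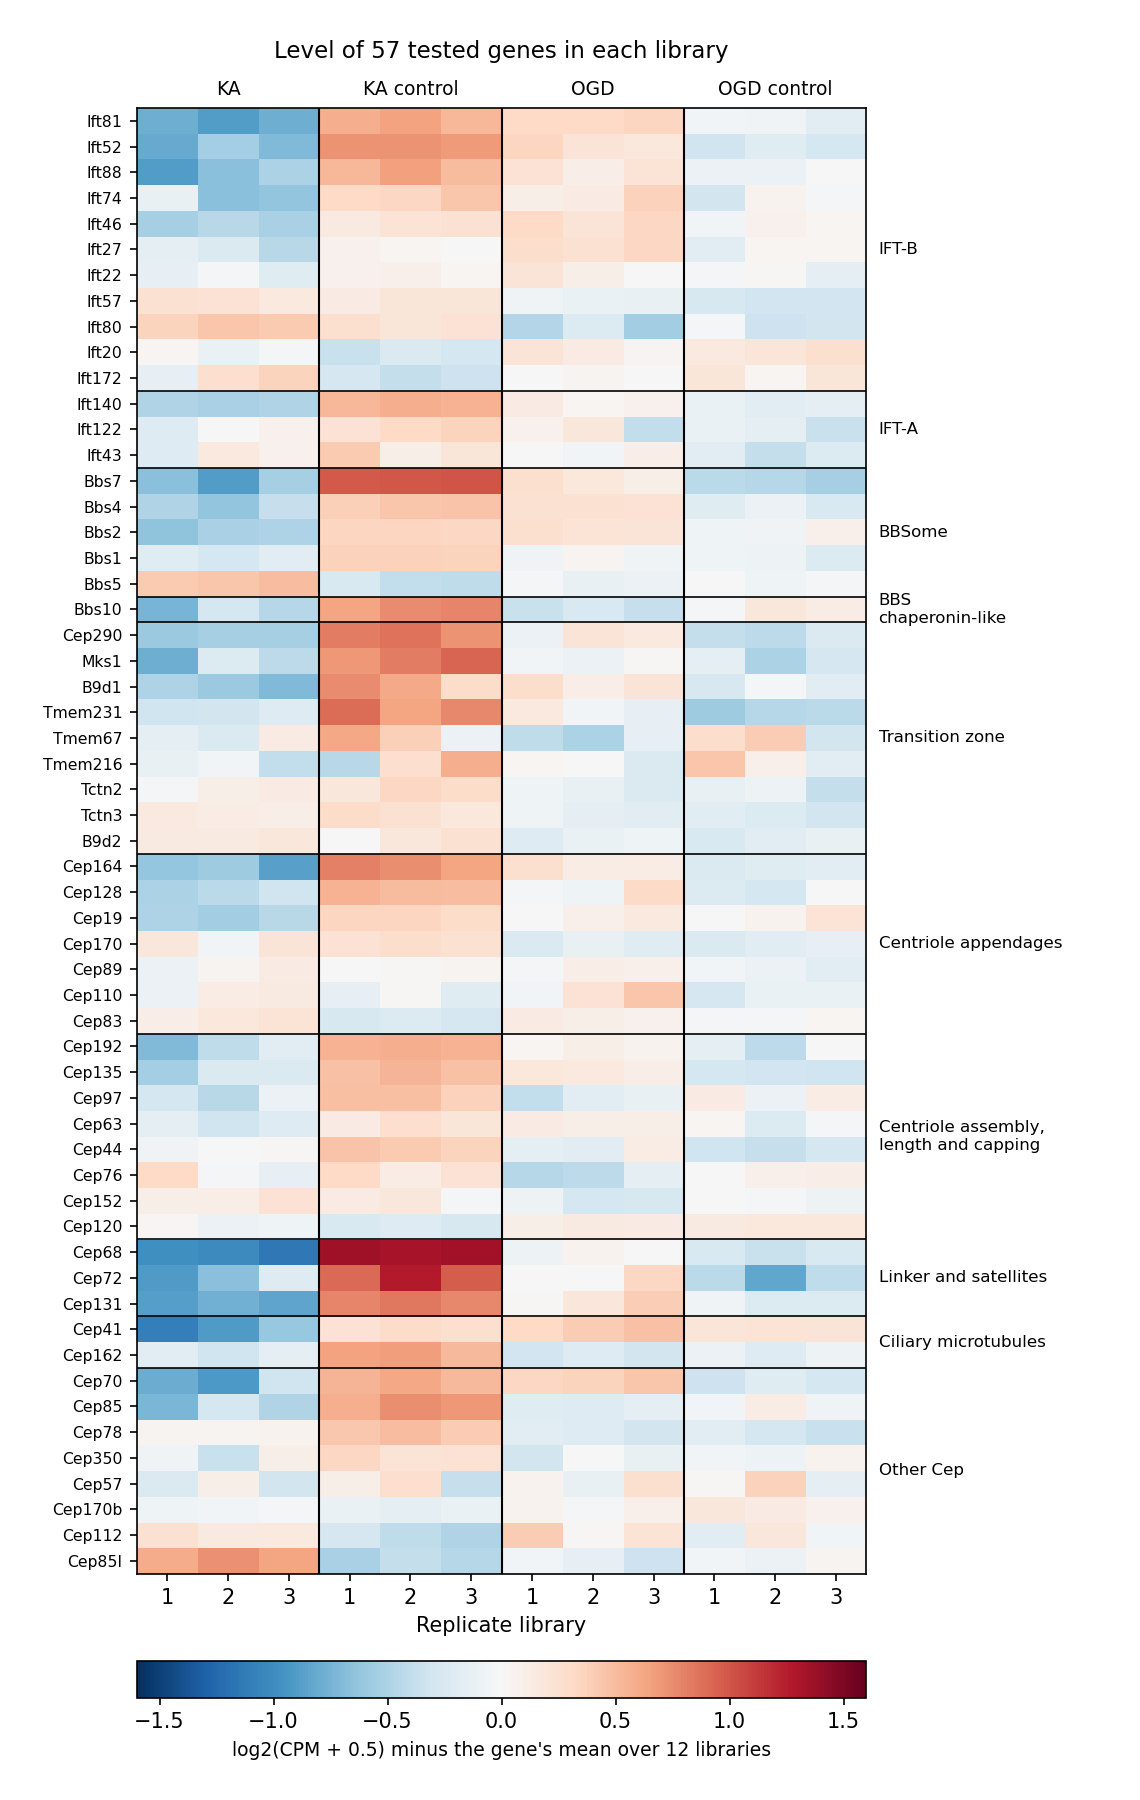
Level of 57 tested genes (rows, grouped by role) in each of the 12 libraries (columns), as log2(CPM + 0.5) minus the gene's mean over the libraries. The KA block is mostly blue and the KA control block mostly red, OGD lies slightly above OGD control, and Cep68 spans the widest range.

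Which genes moved was read from the joint calls. Lower in KA and higher in OGD were 20 of the 58, against 11.2% of all tested genes: Ift27, Ift46, Ift52, Ift81, Ift88, Ift140, Bbs2, Bbs4, Bbs7, B9d1, Tmem231, Cep63, Cep68, Cep70, Cep72, Cep131, Cep135, Cep164, Cep192 and Cep290. For all 20 the difference of the responses was called too, which follows from the opposite calls in the same fit and is no separate support. Lower in both were Bbs10 and Cep97 (3.98% of all tested genes), and 14 of the 58 were lower in KA and not called in OGD (22.4%). The 7 that were higher in KA (Ift20, Ift172, Bbs5, Cep83, Cep85l, Cep112 and Cep120) were not called in OGD, a pattern held by 19.0% of all tested genes. For 6 of them, all but Cep112, the difference was called. A further 3 were higher in OGD alone by these calls (Ift57, Cep89 and Cep110, which the annotation names Cntrl, centriolin), against 3.02% of all tested genes. Cep76 was lower in OGD alone (3.71% of all), and 11 were called in neither (20.5%). The difference between the responses was not called for Ift57, Cep76, Cep89 or Cep110. Of the 11 called in neither treatment, it was called for Ift80 (0.38, adjusted p = 0.0293), Tctn3 (-0.21, 0.0462) and Cep170b (0.17, 0.0129). The Cep170b call was lost with no count filter (0.092) and without OGD replicate 2 (0.0534). Across the 58 genes the log2 fold changes of both treatments had a Pearson correlation of -0.38, close to the -0.36 over all 13139 tested genes. Genes are not independent replicates and all values come from 12 libraries, so this is a description.

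**Figure D2:**
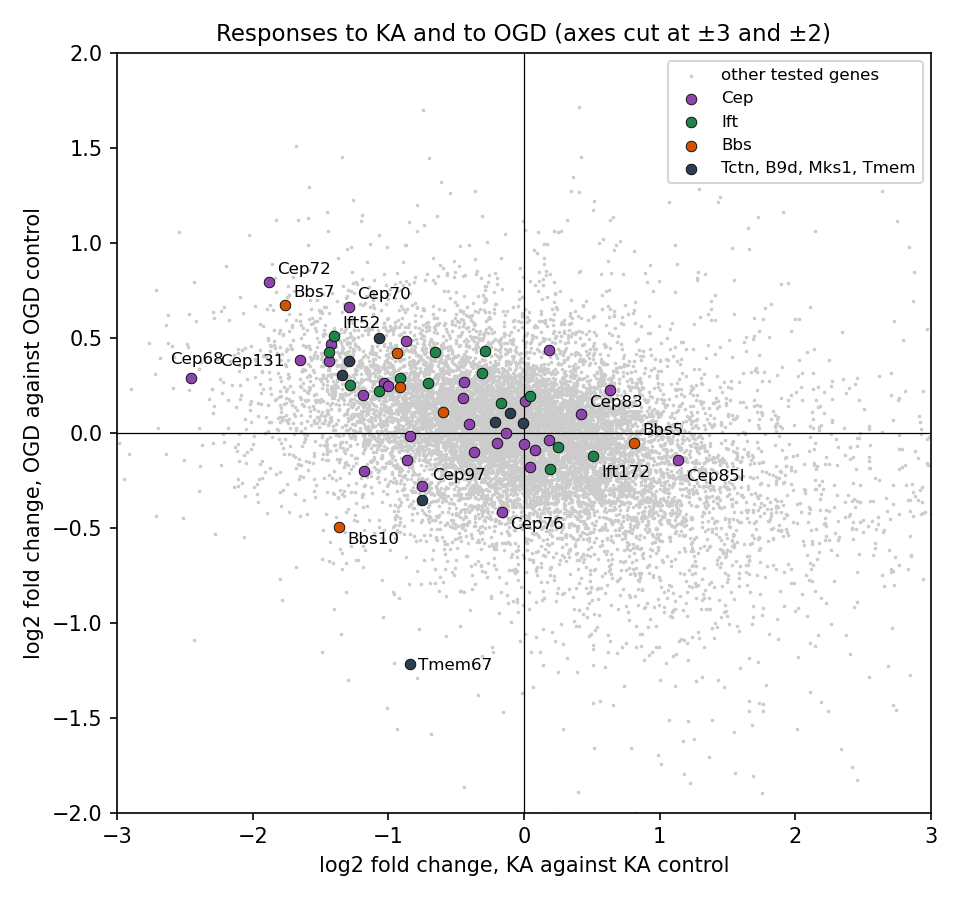
Log2 fold change in KA against KA control (x axis) and in OGD against OGD control (y axis) for the centrosome and cilium genes (coloured by symbol) over all other tested genes (grey; those beyond the axes are not shown). The 20 genes lower in KA and higher in OGD fill the upper left, with Cep68, Cep72 and Bbs7 farthest out, while Cep85l, Bbs5 and Ift172 lie to the right.

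Among IFT-B subunits, 7 of 11 were lower in KA (37.6% of all tested genes) and 2 were higher (35.2%). In OGD 6 were higher (17.6%) and none lower (20.5%). Each role holds few genes, so this count and those of the roles below describe their members and are not results about a role. Ift81, which with Ift74 forms a tubulin-binding module, had 22.1, 20.3 and 22 CPM in KA, against 57.7, 60.2 and 55.3 CPM in KA control. It had 47.8, 47.8 and 48.8 CPM in OGD, against 37.3, 36.8 and 33.7 CPM in OGD control. Its libraries did not overlap in either comparison, with a log2 fold change of -1.44 in KA (SE 0.062, adjusted p = 9.77e-19) and 0.42 in OGD (SE 0.058, adjusted p = 1e-06). Its partner Ift74 was lower in KA, at 4.59 ± 1.14 CPM against 8.49 ± 0.435 CPM in KA control (log2 fold change -0.91, adjusted p = 7.57e-07). In OGD, Ift74 averaged 7.5 ± 0.827 CPM against 6.08 ± 0.797 CPM and was not called (adjusted p = 0.0808).

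Ift52, Ift88 and Ift46 belong to the stable core of IFT-B. Ift52 had 11.8, 14.2 and 12.6 CPM in KA, against 34.7, 34.7 and 33.8 CPM in KA control, which is 0.378 times the KA control level. In OGD it had 26.6, 24.2 and 23.6 CPM, against 16.7, 18.3 and 17.1 CPM in OGD control, or 1.42 times. These groups are separated by more than their spread (adjusted p = 2.23e-16 in KA and 3.01e-06 in OGD). Ift88, whose loss causes polycystic kidneys in mice, had 9.45, 11.1 and 12.5 CPM in KA, against 26, 28.5 and 25.6 CPM in KA control (log2 fold change -1.28, SE 0.085, adjusted p = 2.91e-14). Its rise in OGD was small, to 20.5 ± 0.981 CPM against 17.2 ± 0.735 CPM (log2 fold change 0.25, adjusted p = 0.0147). This call was lost without OGD replicate 1 (adjusted p = 0.0514), OGD replicate 3 (0.051) or OGD control replicate 2 (0.0606). Ift46 averaged 33.4 ± 1.1 CPM in KA against 54.7 ± 1.92 CPM in KA control (-0.71 on the log2 scale, adjusted p = 3.57e-12), and 58 ± 2.79 CPM in OGD against 48.3 ± 1.83 CPM in OGD control (0.26, adjusted p = 0.000325).

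Ift27 and Ift22 are small GTPase-like subunits of IFT-B. Ift27, which helps the BBSome leave the cilium, averaged 16.3 ± 1.74 CPM in KA against 20.3 ± 0.451 CPM in KA control (log2 fold change -0.31, adjusted p = 0.00104). In OGD it averaged 24.2 ± 0.714 CPM against 19.4 ± 1.49 CPM (0.32, adjusted p = 0.00122). Ift22 was -0.17 in KA on the log2 scale (adjusted p = 0.0218), and in OGD 0.16, which was not called (adjusted p = 0.0521). Its call in KA was lost with DESeq2 (adjusted p = 0.0823) and without KA replicate 1 (0.0506), KA replicate 3 (0.0946) or KA control replicate 2 (0.063). The OGD value passed with no count filter (0.0412), with only the groups compared (0.033), and without OGD replicate 3 (0.0249) or OGD control replicate 2 (0.0403).

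Ift20, Ift57, Ift80 and Ift172 are the members among the peripheral IFT-B subunits, which link the core to the kinesin and to membranes. None of these members was called lower in KA. Peripheral subunits with other symbols differed: Cluap1 was lower in KA, at 29.2 ± 0.979 CPM against 53.1 ± 1.04 CPM in KA control (-0.86, adjusted p = 5.22e-14). Traf3ip1 was not called in KA (-0.011, adjusted p = 0.899). Ift172 had 89.99, 119 and 127 CPM in KA, against 82, 75.8 and 78.4 CPM in KA control, so that KA replicate 1 lay closer to the controls than the others did. It was higher in KA (log2 fold change 0.51, SE 0.074, adjusted p = 3.53e-07) and not called in OGD, with 99.7 ± 2.12 CPM against 109 ± 7.05 CPM in OGD control. Ift20, which also works at the Golgi, had 59.5, 54.1 and 56.9 CPM in KA, against 45.2, 49.4 and 47.8 CPM in KA control (0.25 on the log2 scale, adjusted p = 0.000228), but it was lower in KA than in OGD control (-0.24, adjusted p = 0.000477). Ift57 averaged 60.6 ± 2 CPM in KA against 58.8 ± 1.59 CPM in KA control and was not called (adjusted p = 0.453), and was higher in OGD at 48.7 ± 1.16 CPM against 42.6 ± 0.991 CPM (0.19, adjusted p = 0.00492). Ift80 averaged 11.5 ± 0.345 CPM in KA against 10.1 ± 0.224 CPM in KA control (adjusted p = 0.0806), and 6.3 ± 0.831 CPM in OGD against 7.31 ± 0.95 CPM in OGD control (adjusted p = 0.216).

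Of the IFT-A subunits, Ift140 was called in both comparisons. It had 29.97, 29.3 and 30.1 CPM in KA, against 61.2, 63.4 and 62.4 CPM in KA control (log2 fold change -1.07, SE 0.055, adjusted p = 5.59e-17). In OGD it had 46.1, 43.1 and 44.1 CPM, against 39.2, 37.5 and 37.8 CPM in OGD control (0.22, adjusted p = 0.00185). The libraries of the groups did not overlap in either comparison. Ift43, near 1 CPM, and Ift122, below 1 CPM in every library, were not called: Ift122 averaged 0.424 ± 0.0906 CPM in KA against 0.673 ± 0.0501 CPM in KA control (adjusted p = 0.12), and Ift43 averaged 1.02 ± 0.192 CPM against 1.29 ± 0.207 CPM (adjusted p = 0.34).

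Of the BBSome subunits tested, 4 of 5 were lower in KA (37.6% of all tested genes) and Bbs5 was higher (35.2%). Bbs7, part of the core on which the coat is assembled, had 9.37, 7.92 and 10.3 CPM in KA, against 30.4, 30.8 and 30.9 CPM in KA control. It had 18.2, 17.2 and 16.2 CPM in OGD, against 11.2, 10.9 and 10.3 CPM in OGD control. The KA control libraries stood above every other library, and the OGD libraries above those of OGD control and KA. The log2 fold change was -1.76 in KA (SE 0.084, adjusted p = 9.48e-18) and 0.67 in OGD (SE 0.087, adjusted p = 4.20e-07), and the difference between the responses was -2.43 (SE 0.12, adjusted p = 4.79e-17).

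Bbs5, the subunit that binds membrane phosphoinositides, had 34.6, 35.2 and 36.4 CPM in KA, against 21.7, 19.5 and 19.4 CPM in KA control. It was 1.75 times its control level in KA (log2 fold change 0.81, SE 0.065, adjusted p = 2.30e-12), and the lowest KA library was above the highest KA control library. In OGD it averaged 24.3 ± 0.834 CPM against 25.3 ± 0.727 CPM, with overlapping libraries (adjusted p = 0.551). Bbs4 averaged 36.4 ± 3.4 CPM in KA against 69.1 ± 1.94 CPM in KA control (-0.93 on the log2 scale, adjusted p = 1.20e-14), and 60.8 ± 0.208 CPM in OGD against 45.5 ± 2.34 CPM in OGD control (0.42, adjusted p = 1.32e-06). Bbs2 followed the same order, at 12.8 ± 0.694 CPM in KA against 24.1 ± 0.22 CPM in KA control (-0.91, adjusted p = 3.92e-12) and 22.2 ± 0.408 CPM in OGD against 18.7 ± 1.15 CPM in OGD control (0.24, adjusted p = 0.0066). Bbs1, which binds the GTPase Arl6 that brings the coat to the membrane, was lower in KA (-0.59 on the log2 scale, adjusted p = 1.17e-10) and not called in OGD (0.11, adjusted p = 0.133).

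Bbs10 encodes a chaperonin-like protein that helps to assemble the BBSome. It had 1.62, 2.41 and 2.08 CPM in KA, against 5, 5.5 and 5.57 CPM in KA control (log2 fold change -1.36, SE 0.16, adjusted p = 4.95e-09). It was also lower in OGD, with 2.26, 2.49 and 2.24 CPM against 2.98, 3.52 and 3.36 CPM in OGD control (-0.50, SE 0.17, adjusted p = 0.0179). The libraries did not overlap in either comparison, and the fall was larger with KA (difference -0.87, adjusted p = 0.00169). The OGD call was lost with DESeq2 (adjusted p = 0.0766) and without OGD replicate 3 (0.0548), OGD control replicate 2 (0.0794) or OGD control replicate 3 (0.0519).

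At the transition zone, 5 of 9 tested genes were lower in KA (37.6% of all tested genes) and none was higher (35.2%). In OGD 3 were higher (17.6%) and none lower (20.5%). Cep290, a scaffold between the transition zone's microtubules and the membrane, had 6.3, 6.62 and 6.65 CPM in KA, against 17.7, 18.3 and 16.5 CPM in KA control. In OGD it had 9.15, 11.4 and 11 CPM, against 7.41, 7.22 and 8.31 CPM in OGD control. Neither pair of groups overlapped, and the log2 fold changes were -1.42 in KA (SE 0.10, adjusted p = 1.11e-13) and 0.47 in OGD (SE 0.10, adjusted p = 0.000635). Mks1, named for Meckel syndrome, had 2.99, 4.66 and 3.99 CPM in KA, against 9.16, 10.1 and 10.9 CPM in KA control (-1.34 on the log2 scale, adjusted p = 1.80e-10), and was not called in OGD, with 5.33 ± 0.206 CPM against 4.35 ± 0.602 CPM (adjusted p = 0.0988).

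B9d1, a B9-domain partner of Mks1, averaged 2.74 ± 0.247 CPM in KA against 6.74 ± 1.13 CPM in KA control (-1.29 on the log2 scale, adjusted p = 7.08e-09). In OGD it averaged 5.13 ± 0.328 CPM against 3.91 ± 0.357 CPM (0.38, adjusted p = 0.0413), a call lost with DESeq2 (0.122) and without OGD replicate 1 (0.114), OGD replicate 3 (0.0843), OGD control replicate 1 (0.124) or OGD control replicate 3 (0.106). The other B9-domain gene, B9d2, was not called in KA, at 12.2 ± 0.196 CPM against 12.1 ± 1.07 CPM (log2 fold change -0.0033, SE 0.088, adjusted p = 0.975). Tmem231, a membrane protein of the same module, had 11.4, 11.6 and 12.3 CPM in KA, against 27.1, 22.5 and 24.6 CPM in KA control (-1.07, adjusted p = 4.57e-12), and 16, 13.9 and 13 CPM in OGD, against 9.47, 10.3 and 10.4 CPM in OGD control (0.50, adjusted p = 0.000164). Tctn2 fell slightly in KA, to 21.2 ± 1.17 CPM against 24.5 ± 1.29 CPM (-0.21, adjusted p = 0.0175), a call lost with DESeq2 (0.076) and without KA replicate 1 (0.0722) or KA control replicate 2 (0.075), and it was higher in KA than in OGD control (0.27). Tctn3 was not called (-0.11, adjusted p = 0.138). Tmem67 and Tmem216 stayed below 1 CPM in every library and were not called, with log2 fold changes in KA of -0.84 (SE 0.45) and -0.75 (SE 0.45). Their KA values passed without 1 library each, Tmem67 without KA control replicate 3 (-1.12, adjusted p = 0.0273) and Tmem216 without KA control replicate 1 (-1.10, adjusted p = 0.0203). In OGD, Tmem67 averaged 0.223 ± 0.101 CPM against 0.524 ± 0.248 CPM in OGD control, and its log2 fold change of -1.22 had an SE of 0.52 (adjusted p = 0.0633) and passed without OGD replicate 3 (0.0456) or OGD control replicate 3 (0.0208).

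**Figure D3:**
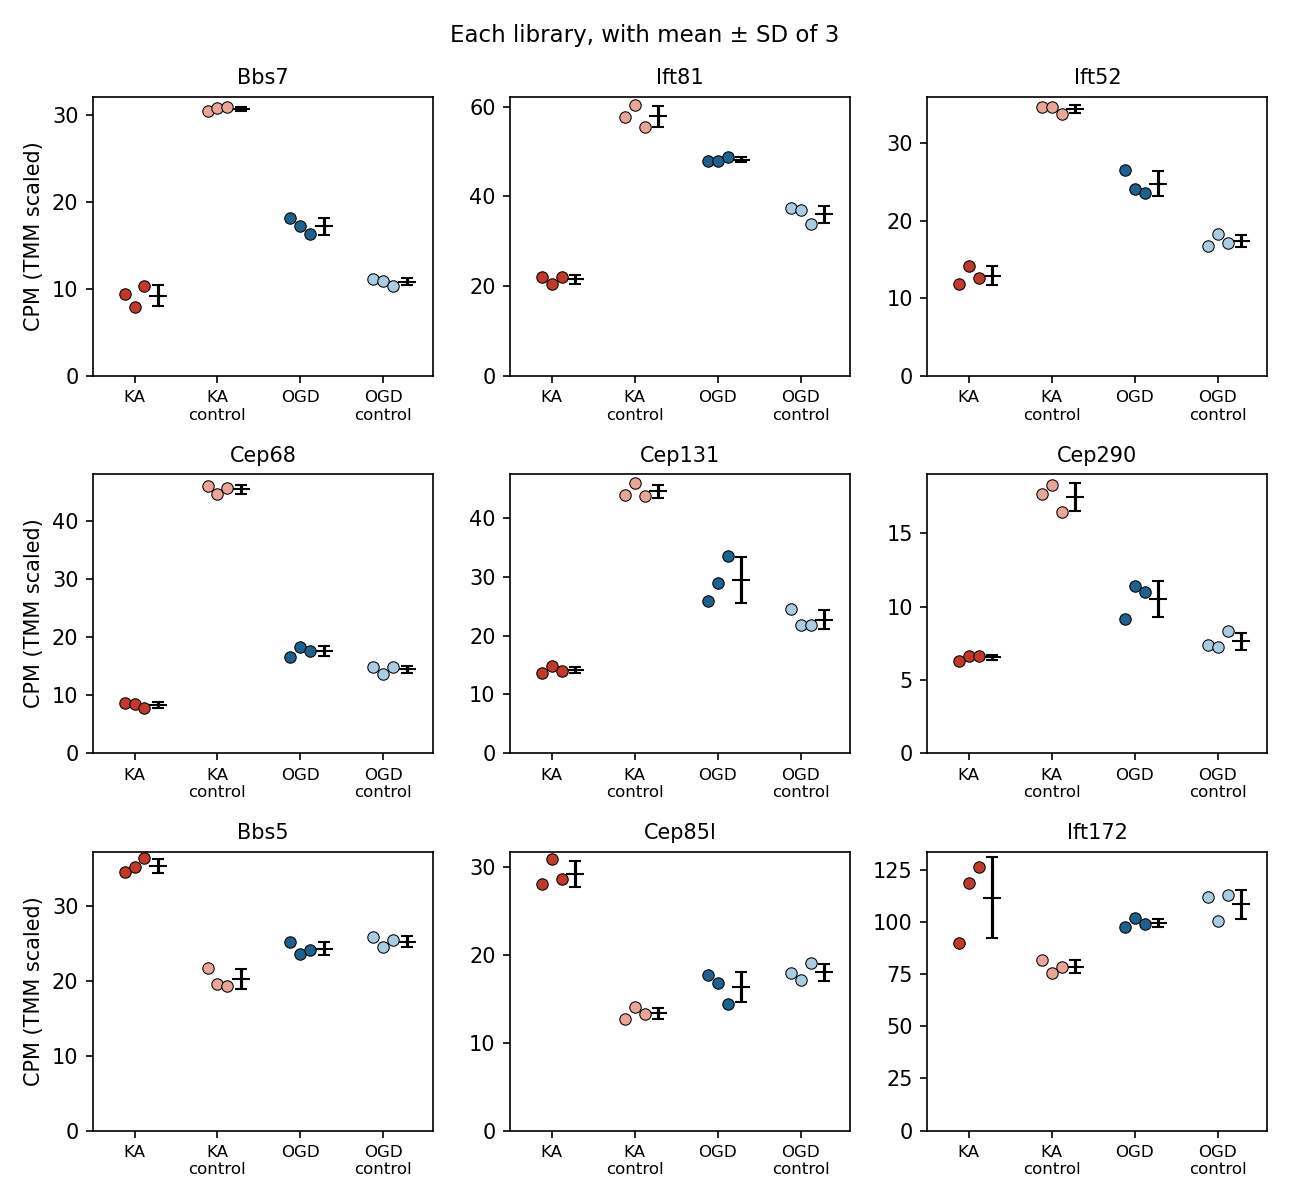
CPM in each library (points) with mean ± SD of 3 (bars) for 9 genes in KA, KA control, OGD and OGD control. Bbs7, Ift81, Ift52, Cep68, Cep131 and Cep290 are lowest in KA and highest in KA control, and Bbs5, Cep85l and Ift172 are lowest in KA control.

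Centriole appendages dock the basal body and anchor microtubules, and their 7 tested genes split. In KA 4 were lower (37.6% of all tested genes) and Cep83 was higher (35.2%). Cep164, a distal appendage protein required for docking of ciliary vesicles, had 11, 11.3 and 9.15 CPM in KA, against 30.4, 29.1 and 26.7 CPM in KA control. It had 20.5, 18.6 and 18.6 CPM in OGD, against 14.4, 14.9 and 15 CPM in OGD control. Its log2 fold change was -1.44 in KA (SE 0.083, adjusted p = 1.12e-15) and 0.38 in OGD (SE 0.082, adjusted p = 0.000499), with no overlap of libraries in either. Cep83, which sits at the root of the same distal appendages, had 57.6, 60.3 and 62.3 CPM in KA, against 44.6, 45.8 and 44.4 CPM in KA control (0.42, adjusted p = 1.75e-08), and in OGD it was not called (0.10, adjusted p = 0.116). The other 3 lower in KA were Cep19, Cep128 and Cep170, and the 3 called higher in OGD were Cep89, Cep110 and Cep164.

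The linker that tethers the centrioles to each other and the centriolar satellites, granules that ferry proteins to the centrosome, included the member with the largest fall in KA. All 3 tested genes of this group were lower in KA and higher in OGD, a pattern held by 11.2% of all tested genes. Cep68, a linker protein, had 8.64, 8.42 and 7.73 CPM in KA, against 46, 44.6 and 45.7 CPM in KA control. In OGD it had 16.6, 18.3 and 17.6 CPM, against 14.7, 13.7 and 14.8 CPM in OGD control. The KA libraries were the lowest of all 12 and the KA control libraries the highest by a wide margin. Its level in KA was 0.183 times that in KA control (log2 fold change -2.45, SE 0.075, adjusted p = 1.88e-22), and in OGD it was 1.22 times that in OGD control (adjusted p = 0.00329).

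Cep131, a satellite protein, had 13.7, 14.8 and 14 CPM in KA, against 44, 45.9 and 43.8 CPM in KA control. It had 25.9, 28.9 and 33.6 CPM in OGD, against 24.6, 21.9 and 21.7 CPM in OGD control. No libraries overlapped (log2 fold change -1.65, adjusted p = 2.03e-17 in KA; 0.38, adjusted p = 0.00024 in OGD). Cep72, which recruits other proteins to satellites, was low throughout, with 1.45, 1.8 and 2.66 CPM in KA, against 6.35, 8.33 and 6.64 CPM in KA control. In OGD it had 3.13, 3.16 and 4.09 CPM, against 2.22, 1.55 and 2.26 CPM in OGD control. It was called in both (log2 fold change -1.88, SE 0.18, adjusted p = 1.24e-10 in KA; 0.79, SE 0.21, adjusted p = 0.00279 in OGD), and its OGD value had the largest size of any called member in that comparison.

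Of the genes for centriole assembly, length and capping, 5 of 8 were lower in KA (37.6% of all tested genes) and Cep120 was higher (35.2%). In OGD 3 were higher (17.6%) and 2 lower (20.5%). Cep135, of the cartwheel that starts a new centriole, averaged 5.82 ± 0.771 CPM in KA against 10.7 ± 0.38 CPM in KA control (-0.87, adjusted p = 1.36e-08). In OGD it averaged 8.29 ± 0.204 CPM against 5.94 ± 0.0883 CPM (0.48, adjusted p = 0.000746). Cep192, which recruits the kinase that licenses duplication, averaged 11.6 ± 2.18 CPM in KA against 23.3 ± 0.237 CPM in KA control (-1.01, adjusted p = 1.80e-10), and its OGD call was marginal (0.25, adjusted p = 0.0495) and was lost with DESeq2 (0.0992), with its size factors (0.0532), with the 1 CPM filter (0.0521), without any of OGD replicates 1 to 3 (0.068 to 0.124) or without OGD control replicate 1 (0.0732) or 2 (0.378). Cep120, needed for centriole elongation, had 149, 138 and 141 CPM in KA, against 125, 128 and 124 CPM in KA control (0.19, SE 0.044, adjusted p = 0.000404), and was lower in KA than in OGD control (-0.21).

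The 2 genes of this group that were lower in OGD both encode restraints. Cep97, which with Ccp110 caps the centriole end and blocks cilium growth, had 12.2, 14.2 and 14.9 CPM in OGD, against 17.8, 15.2 and 17.5 CPM in OGD control (-0.28, adjusted p = 0.0182). This call was lost without OGD replicate 1 (adjusted p = 0.114), OGD control replicate 1 (0.0747) or OGD control replicate 3 (0.0833). It was also lower in KA, at 13.3 ± 1.71 CPM against 22.2 ± 1.02 CPM in KA control (-0.75, adjusted p = 1.51e-08). Cep76, which prevents centrioles from duplicating again, had 8.27, 8.49 and 10.4 CPM in OGD, against 11.5, 12.2 and 12.5 CPM in OGD control (-0.42, adjusted p = 0.00323), and was not called in KA (-0.16, adjusted p = 0.163).

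Of the genes for ciliary microtubules, Cep41, needed for glutamylation of axonemal tubulin, had 5.33, 6.12 and 7.65 CPM in KA, against 14.1, 14.7 and 14.4 CPM in KA control (-1.19, SE 0.10, adjusted p = 1.30e-11). In OGD it averaged 15.8 ± 0.886 CPM against 13.8 ± 0.151 CPM and was not called (adjusted p = 0.0681). Against OGD control its level in KA was 0.459 times (adjusted p = 3.24e-10). Cep162 was also lower in KA.

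Among the remaining Cep genes, Cep85l had the largest rise. It encodes a pericentriolar protein in which human mutations cause lissencephaly, a disorder of neuronal migration. It had 28, 30.8 and 28.6 CPM in KA, against 12.6, 14 and 13.3 CPM in KA control, or 2.19 times the control level (log2 fold change 1.13, SE 0.079, adjusted p = 8.08e-14). In OGD it had 17.7, 16.8 and 14.4 CPM, against 17.9, 17.1 and 19 CPM in OGD control, and was not called (adjusted p = 0.178). Its paralogue Cep85, which restrains the centrosome-splitting kinase Nek2, went the other way in KA, with 6.62, 9.26 and 7.98 CPM against 17.1, 19.3 and 18.5 CPM in KA control (-1.18, adjusted p = 5.01e-12). Cep70 averaged 10.3 ± 2.44 CPM in KA against 24.6 ± 0.897 CPM in KA control (-1.29, adjusted p = 6.78e-13), and 21.6 ± 0.914 CPM in OGD against 13.6 ± 0.706 CPM in OGD control (0.66, adjusted p = 1.69e-06). Cep112 averaged 5.16 ± 0.221 CPM in KA against 3.33 ± 0.298 CPM in KA control (0.63, adjusted p = 0.000334). The paralogues Cep170 and Cep170b were the most abundant members by CPM, and Cep170b was not called in either treatment (0.081 in KA, adjusted p = 0.0916; -0.092 in OGD, adjusted p = 0.0902).

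The untreated controls of the experiments also differed in these genes. In KA control, 39 of the 58 genes were higher and 8 lower than in OGD control (34.5% and 34.2% of all tested genes), with a median log2 fold change of 0.47, and 7 genes were at least 2-fold higher (6.65% of all tested genes) and none at least 2-fold lower (9.27%). Every KA control library lay above every OGD control library for 43 genes (37% of all tested genes) and below for 8 (36%). KA control was the group with the highest mean for 38 of the 58 genes (35.1% of all tested genes), and KA the group with the lowest for 31 (31.6%). The largest of these differences were in Cep72 (log2 fold change 1.85, SE 0.17, adjusted p = 1.24e-10), Cep68 (1.66, adjusted p = 2.71e-19) and, among the other families, Bbs7 (1.51, adjusted p = 1.70e-16). Lowest against OGD control were Ift20 (-0.50, adjusted p = 3.33e-09) and Ift172 (-0.47, adjusted p = 1.91e-06), both of which were higher in KA than in KA control. All 7 members called higher in KA were among the 8 that were lower in KA control than in OGD control; the eighth was Cep170b. Of these, Cep112 lost its call between the controls without OGD control replicate 2 (adjusted p = 0.101) and with the replicate block (0.149). This comparison shares the KA control libraries with the KA comparison and the OGD control libraries with the OGD comparison, so a high or low control library enters both.

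Against the other experiment's control, an alternative added after seeing the data, the median kept its sign in KA and changed it in OGD. KA against OGD control had 23 genes lower (28.3% of all tested genes) and 11 higher (29.3%), with a median of -0.17; 1 was at least 2-fold lower (4.25% of all tested genes) and none at least 2-fold higher (3.75%). Of the 36 genes called lower against KA control, 20 were also called lower against OGD control, 12 were not called, and 4 were called higher. These 4, named after their values were seen, were Tctn2 (log2 fold change 0.27, adjusted p = 0.00858), Cep44 (0.34, adjusted p = 0.0121), Cep78 (0.32, adjusted p = 0.000215) and Cep170 (0.30, adjusted p = 1.0e-05). Of the 7 called higher against KA control, Bbs5, Cep83 and Cep85l were also called higher against OGD control, Ift172 and Cep112 were not called, and Ift20 (-0.24, adjusted p = 0.000477) and Cep120 (-0.21, adjusted p = 0.000126) were called lower. Among the largest falls, Bbs7 was 0.295 times its own control in KA but 0.84 times OGD control (adjusted p = 0.037), Cep72 was 0.976 times (adjusted p = 0.917), and Cep68 was 0.576 times (adjusted p = 1.27e-08). Against KA control, OGD had 36 genes lower (34.1% of all tested genes) and 10 higher (33.2%), with a median of -0.38; 4 were at least 2-fold lower (5.5% of all tested genes) and none at least 2-fold higher (7.1%). Of the 23 called higher in OGD against OGD control, 17 were called lower against KA control, 4 were not called, and Ift27 and Cep110 were also called higher. The 3 called lower in OGD, Bbs10, Cep76 and Cep97, were called lower against both controls. In these comparisons the treatment and the experiment cannot be told apart.

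**Figure D4:**
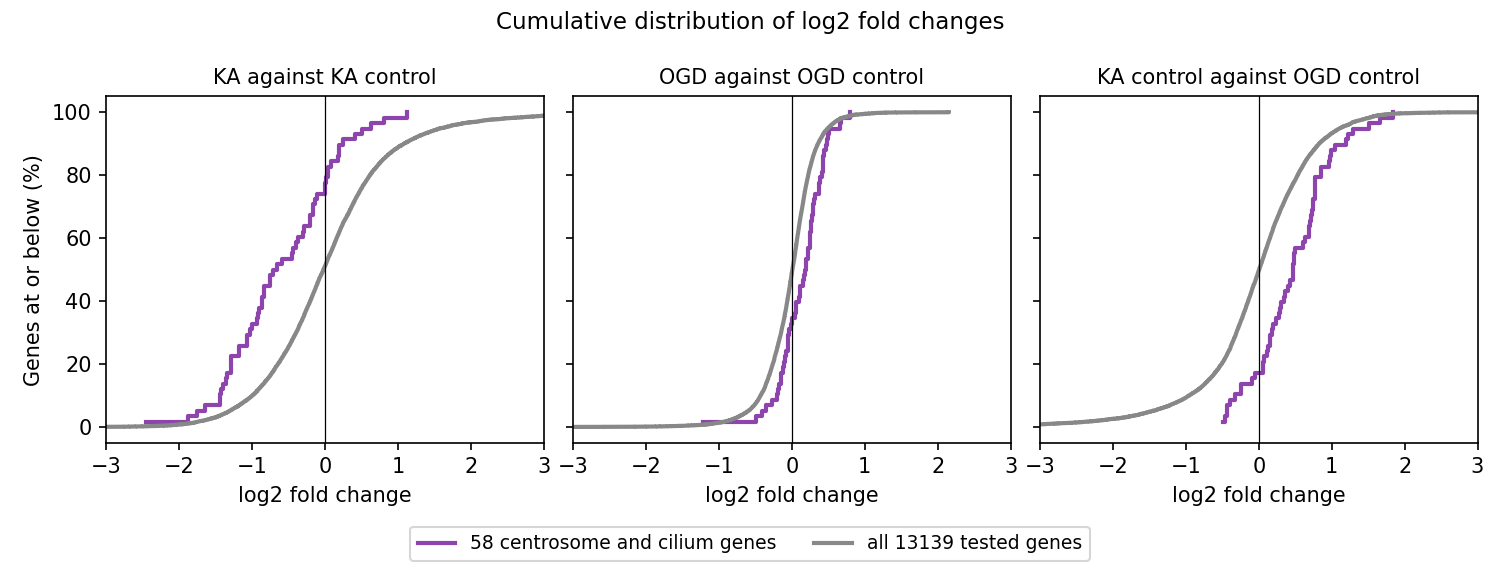
Cumulative share of genes (y axis, %) at or below each log2 fold change (x axis) for the 58 centrosome and cilium genes and for all 13139 tested genes, in 3 comparisons. The curve of the 58 genes lies to the left in KA against KA control (median -0.68), slightly to the right in OGD against OGD control (0.19) and to the right in KA control against OGD control (0.47).

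Compared per kilobase of exon, which sets genes of different length on one scale, the tested members spanned a wide range of levels. In KA control, the highest were Cep170b at 38.8 CPM per kb, Cep170 at 35.9, Ift20 at 31.1, Cep19 at 27.4 and Ift57 at 20.6 CPM per kb. The lowest tested was Ift122 at 0.0653 CPM per kb, followed by Tmem67 at 0.0837. Within IFT-B, Ift20 and Ift57 were thus far above Ift80 (0.809 CPM per kb). The part of read counting in this order was not tested. The 7 members that could not be tested (Bbs9, Bbs12, Tctn1, Cep55, Cep57l1, Cep95 and Cep250) had 0 to 90 counts over all 12 libraries and all have 2 to 4 RefSeq transcripts, whereas 36 of the 58 tested have 1. Cep250, the main linker protein, had no count in any library, for which 3 counts (0.129 to 0.249 CPM, depending on the library) is the upper limit of counting error alone.

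Members of the same machinery whose symbols the choice of names missed were counted too, and each count stands against the 37.6% of all tested genes called lower and the 35.2% called higher in KA, and the 20.5% and 17.6% in OGD. Of the other IFT subunits 8 of 9 tested were lower in KA (88.9%) and none higher, with a median log2 fold change of -0.96, and in OGD 3 were higher and none lower. Wdr19, of IFT-A, averaged 8.98 ± 1.05 CPM in KA against 29.8 ± 0.365 CPM in KA control (log2 fold change -1.72, adjusted p = 2.07e-17). Of the IFT motors 7 of 10 were lower (70%) and 2 higher in KA, among them the kinesin-2 subunit Kif3b (-0.60, adjusted p = 9.79e-13) and the dynein-2 chain Dync2li1 (-0.999, adjusted p = 7.79e-12), both lower. Of other transition zone genes 9 of 13 were lower (69.2%) and 3 higher in KA, and in OGD 6 were higher and none lower. Rpgrip1l averaged 9.33 ± 0.881 CPM in KA against 39.1 ± 3.09 CPM in KA control (-2.08, adjusted p = 1.18e-19), whereas Nphp4 averaged 53.8 ± 6.17 CPM against 27.4 ± 1.97 CPM (0.98, adjusted p = 3.96e-12). The controls differed here too. In KA control against OGD control, 7 of the 9 IFT subunits were higher and 0 lower. Of the 10 motors 5 were higher and 1 lower, and of the 13 transition zone genes 9 were higher and 2 lower. Among all tested genes 34.5% were higher and 34.2% lower.

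Of other centriole and pericentriolar material genes 23 of 38 were lower (60.5%) and 5 higher (13.2%) in KA, and 11 were higher and 4 lower in OGD. Of the augmin subunits, which nucleate microtubules from existing ones, 4 of 7 were lower (57.1%) and none higher in KA. Of 5 tested BBSome partners, 2 were lower and 2 higher in KA: Lztfl1, which regulates BBSome entry, was lower (-0.87, adjusted p = 5.29e-13) and Arl6, the GTPase that recruits it, was higher (0.32, adjusted p = 1.68e-05).

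Genes for signalling through the cilium were counted apart from its structural genes. Of 13 tested cilium membrane and signalling genes 5 were higher (38.5%) and 4 lower (30.8%) in KA, close to the shares over all tested genes. Mchr1, the melanin-concentrating hormone receptor of neuronal cilia, averaged 9.55 ± 0.207 CPM in KA against 1.81 ± 0.228 CPM in KA control (2.41, adjusted p = 5.56e-15). The somatostatin receptor Sstr3 (0.22, adjusted p = 0.195) and the serotonin receptor Htr6 (-0.36, adjusted p = 0.337) were not called in KA. Of 11 tested Hedgehog genes 8 were higher (72.7%) and 1 lower in KA, with a median log2 fold change of 0.91, and 1 was higher and 4 were lower in OGD. Gli2, a transcription factor that passes through the cilium, averaged 36.5 ± 2.27 CPM in KA against 1.93 ± 0.313 CPM in KA control (4.23, adjusted p = 5.93e-22). The ligand Shh averaged 95.2 ± 1.68 CPM against 28.3 ± 2.11 CPM (1.74, adjusted p = 1.24e-21). Of 7 tested genes for RFX factors, their partners and Foxj1, the master regulator of motile cilia, 4 were higher (57.1%) and 1 lower in KA. Rfx7 was lower (-0.77, adjusted p = 9.78e-14), and Foxj1 averaged 12.1 ± 1.13 CPM in KA against 4.68 ± 0.358 CPM in KA control (1.38, adjusted p = 2.30e-12). In OGD control, Foxj1 averaged 17.8 ± 1.2 CPM, above its KA level. Mchr1 (5.09 ± 1.01 CPM), Gli2 (7.54 ± 1.14 CPM) and Shh (27.5 ± 1.26 CPM) averaged less there than in KA. Boc, the Hedgehog gene with the smallest adjusted p in KA, averaged 62 ± 4.75 CPM in KA against 10.7 ± 0.868 CPM in KA control (2.54, adjusted p = 7.03e-23). In OGD control Boc averaged 63.8 ± 4.47 CPM, close to its KA level. In KA control, 6 of the 11 Hedgehog genes were lower than in OGD control and 2 higher (34.2% and 34.5% of all tested genes). Of the 7 RFX and Foxj1 genes 3 were lower and none higher. The part of this control difference in the KA changes was not tested.

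Summed levels of markers of the cells a neuronal culture can hold also differed between KA and KA control. Each count of markers called stands against the 35.2% of all tested genes called higher and the 37.6% called lower in KA. Of 11 neuronal markers 10 were tested (Rbfox3 had 71 counts in all), 6 higher (60%) and 2 lower in KA, and their summed level was 8348 to 8921 CPM in KA, 6300.2 to 6359 CPM in KA control, 8001 to 8207 CPM in OGD and 8078 to 8343 CPM in OGD control. A few abundant genes set this sum. Stmn2 gave 3966 ± 123 CPM (KA) and 2794 ± 31.6 CPM (KA control), and Nefl 1517 ± 55.8 CPM and 395 ± 14.1 CPM. Tubb3, called lower in KA, gave 2084 ± 158 CPM and 2360 ± 30.9 CPM. For astrocytes and radial glia, 7 of 12 tested markers were higher (58.3%) and 1 lower in KA, with sums of 625 to 675 CPM in KA, 218 to 229 CPM in KA control, 249 to 270.3 CPM in OGD and 312 to 338 CPM in OGD control. Of this sum, Vim alone gave 357 ± 20.9 CPM (KA) and 72.1 ± 5.53 CPM (KA control). Gfap and Aqp4, which define mature astrocytes, stayed below 2 CPM on average in every group. For ependymal and multiciliated cells, which carry many motile cilia, 5 of 10 tested markers were higher (50%) and none lower in KA, with sums of 87.9 to 92.7 CPM in KA, 21.6 to 26.6 CPM in KA control, 77.4 to 82.7 CPM in OGD and 78.2 to 81.5 CPM in OGD control, and Gmnc had no count. Most of this sum came from Ccno, at 43.2 ± 2.85 CPM (KA) and 3.54 ± 0.317 CPM (KA control), and Rsph4a, at 20.2 ± 1.64 CPM (KA) and 1.82 ± 0.136 CPM (KA control). Not called in KA were Mcidas, Dnah5, Rsph1, Spag17 and Hydin. For dividing cells, 6 of 16 tested markers were higher (37.5%, close to the 35.2% of all tested genes) and 3 lower in KA, with sums of 417 to 444 CPM in KA, 154 to 171 CPM in KA control, 191 to 202 CPM in OGD and 211 to 222 CPM in OGD control, of which Pcna alone gave 342 ± 11.3 CPM (KA) and 102 ± 6.72 CPM (KA control); Bub1 and Tpx2 had no count. These sums, weighted by their most abundant genes, were higher in KA than in KA control, while most centrosome and cilium genes were lower in KA. Marker sums of the remaining types were at most 50.2 CPM in any library, and they too were higher in KA than in KA control. For microglia, 4 of 5 tested markers were higher and none lower, with sums of 8.48 to 10.3 CPM in KA and 4.55 to 5.67 CPM in KA control. For fibroblasts and mural cells, 4 of 6 were higher and none lower, with sums of 19.1 to 19.8 CPM in KA and 6.01 to 6.59 CPM in KA control. For endothelial cells both tested markers were higher, with sums of 4.41 to 5.9 CPM in KA and 2.19 to 2.92 CPM in KA control. For the oligodendrocyte lineage 2 of 6 were higher (33.3%, close to the share of all tested genes) and none lower, with sums of 44.3 to 50.2 CPM in KA and 37.1 to 39.7 CPM in KA control. The part of cell composition in these results was not tested.

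TruSeq RNA libraries do not mark strand, so reads of a gene and of a gene on the opposite strand that overlaps it cannot be told apart. Among the 65 genes, the annotation has exons of such a gene over those of Cep290 (4930430F08Rik), Bbs4 (Adpgk), Cep85l (Pln and Gm47641), Ift57 (Gm15518), Ift88 (Ift88os), Cep63 (Anapc13), Cep70 (Gm38327 and 4930422M22Rik), Cep170 (Gm36992), Tmem216 (Cpsf7), Tmem67 (Rbm12b2 and Gm11842) and Cep112 (Cep112os1). Of the untested genes this holds for Tctn1 (1574 exonic bases with Hvcn1 and 539 with Gm15481), Cep250 (1149 with 6430550D23Rik), Bbs12 (Cetn4), Cep57l1 (BC048559) and Cep95 (Gm11706). The part of these overlaps in the low counts of the untested genes was not tested. The tested members are also longer than most genes, with a median of 5804 exonic bases against 4477 for all tested genes that had a length.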

How the data were processed

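RNA sequencing of 12 libraries was used from the table the authors deposited, which holds raw counts, not normalized, for 22899 gene symbols. Per the labels' protocols, RNA was extracted with RNeasy columns and made into TruSeq RNA v2 libraries. The submitters' processing notes name TopHat 1.4.1, HTSeq 0.6.1, bcl2fastq 1.8.4 and mm10, the mouse build; the annotation and the settings are not stated there. The table heads the OGD columns with OGT, and they were matched to the OGD samples by name with this letter different.

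The members and gene lists were chosen with earlier results of these data known. Tests used edgeR 4.0.16 (R 4.3.3). Genes passed filterByExpr with a minimum count of 10 and a minimum total of 15, were scaled by TMM, and entered the quasi-likelihood test in 1 fit of 4 group means over 12 libraries with 8 residual degrees of freedom, two-sided. The common biological coefficient of variation was 0.0402. P-values were adjusted over all 13139 tested genes, and calls were made at 0.05. The procedure was tested on simulated data.

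No replicate pair agreed within sampling noise (chi-square over its degrees of freedom was 1.49 to 6.19), so each library counts once. The limit for a count of 0 (3 counts) covers counting error only. Symbols were matched to GENCODE M21 (21561 of 22899 by symbol, 932 by an older one, 406 not), whose merged exons gave lengths, and promoters and transcript numbers came from RefSeq. All tested members outside the Cep family could be named. Values of 1 tested Cep gene are not reported here, though it is included in the counts and medians. Of the Cep genes, those named with values were the 8 largest changes each way per treatment among called genes with at least 2 logCPM, the 6 largest for the difference of responses and the 4 largest between controls, and from each other list up to 3 called genes with the smallest adjusted p. Some further list genes, such as Sstr3, Htr6, Tubb3, Gfap, Aqp4 and the ependymal markers not called, are named outside this order.

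Alternatives were DESeq2 1.42.0, its size factors in edgeR, no count filter, a replicate block, a minimum of 1 CPM in all libraries of a group, fits of only the groups compared, each library left out, genes with 1 RefSeq transcript, and removal of a trend on length (lowess span 0.3). Use of the other experiment's control was added after seeing the data.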

Additional observations from a re-analysis of the deposited data

Results flagged for a closer look

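For 17 of the genes named in both treatment comparisons, the responses to KA and OGD were called in opposite directions and the difference between them (KA against KA control minus OGD against OGD control, on the log2 scale) was called in edgeR's interaction contrast. Since the genes were picked for opposite calls in the same fit, the call of the difference follows from them and only its size is informative. The difference was -2.74 for Cep68, -2.67 for Cep72 and -2.03 for Cep131 among linker and satellite genes. Of the BBSome, Bbs7 had -2.43, Bbs4 -1.35 and Bbs2 -1.16. Of the IFT subunits, Ift52 had -1.91, Ift81 -1.86, Ift88 -1.53, Ift140 -1.29, Ift46 -0.97 and Ift27 -0.62. At the transition zone and the appendages, Cep290 had -1.89, Cep164 -1.82, B9d1 -1.67 and Tmem231 -1.56, and Cep70 had -1.95. In each of these genes, KA was lower than KA control and OGD higher than OGD control, and the KA control and OGD control libraries enter every value.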

How the results depend on the processing

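Apart from the other experiment's control, 1189 values of named genes were recomputed, of which 1135 kept their direction and side of the threshold, 34 lost a call, 11 gained one and 9 changed direction, none of these called in either setting. The 9 were Tctn2 in OGD without OGD control replicate 3 (-0.041; -0.041 to 0.12 over the libraries left out) and B9d2 in KA, close to 0 in these fits: 0.0035 with the 1 CPM filter, 0.013 with DESeq2, 0.018 with its size factors, 0.017 with only the groups compared, and -0.069 to 0.044 with a library left out. The largest share of lost calls was for small OGD changes, such as Cep192 (adjusted p up to 0.378). Removing 1 library left 33 to 37 members lower and 7 higher in KA, 18 to 20 higher and 2 to 3 lower in OGD, and 38 to 39 higher and 7 to 8 lower in KA control than in OGD control.

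The median log2 fold change in KA was -0.59 with the 1 CPM filter, -0.61 with only the groups compared, -0.77 over genes with 1 transcript and -0.67 to -0.61 with a library left out. The OGD median was 0.20 without a count filter, 0.20 with only the groups compared, 0.20 with the length trend removed and 0.16 to 0.20 with a library left out. Over the 36 members with 1 transcript, 15 were higher and 1 was lower in OGD, with a median of 0.17. For KA control against OGD control the median was 0.46 with DESeq2's size factors, 0.49 without a count filter, 0.49 with the replicate block, 0.43 with the length trend removed, 0.57 over genes with 1 transcript and 0.44 to 0.51 with a library left out. With the other experiment's control, KA had 11 higher and 23 lower (median -0.17) and OGD had 10 higher and 36 lower (median -0.38, the other direction). Of 40 named KA values, 23 kept direction and call with OGD control, 7 lost and 2 gained a call and 8 changed direction: Ift20 (-0.24), Cep120 (-0.21), Tctn2 (0.27), Tctn3 (0.37), B9d2 (0.34), Tmem231 (0.22), Ift43 (0.45) and Ift122 (0.39). Of 38 named OGD values, 6 kept both with KA control, 1 lost and 2 gained a call and 29 changed direction. Now above 0 were Ift20 (0.42), Ift172 (0.34) and Bbs5 (0.27). Now below 0 were Ift52 (-0.48), Ift57 (-0.28), Ift74 (-0.18), Ift81 (-0.27), Ift88 (-0.39), Ift43 (-0.31), Ift122 (-0.62), Ift140 (-0.49), Bbs1 (-0.39), Bbs2 (-0.12), Bbs4 (-0.18), Bbs7 (-0.84), Tctn2 (-0.42), Tctn3 (-0.37), B9d1 (-0.40), B9d2 (-0.29), Mks1 (-0.92), Tmem231 (-0.79), Cep72 (-1.05), Cep70 (-0.19), Cep135 (-0.37), Cep290 (-0.72), Cep131 (-0.60), Cep164 (-0.58), Cep68 (-1.37) and Cep192 (-0.51). The cause of these shifts was not tested.

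The replicate numbers were not taken as pairs: same-numbered libraries deviated with correlations of -0.048 to -0.038 in the KA experiment and 0.026 to 0.046 in the OGD experiment. In the OGD experiment every library correlated best with its own number. In the KA experiment the best matches were as large but joined different numbers: KA 1 with control 2 (0.051), KA 2 with control 3 (0.045) and KA 3 with control 1 (0.043). Matches of this size therefore do not show pairing. With the replicate block, Cep112 lost its call between the controls (adjusted p = 0.149), and no other named call changed. No scaling alternative moved the median of all genes by over 0.1. With only the groups compared, Ift80 in KA and Ift172 and Ift74 in OGD gained a call (adjusted p = 0.0451, 0.0453 and 0.047). Genes near or below 1 CPM, such as Ift43, Ift122, Tmem67 and Tmem216, rest on few counts and their fold changes have large SEs. Why their counts are low was not tested.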
